A study of Homo sapiens with 3 samples.

Results

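The genes described here encode the core protein parts of the spliceosome. They were taken by symbol from the protein-coding genes of the RefSeq GRCh38.p14 gene table: every symbol starting with SNRP, SF3A, SF3B or PRPF, plus U2AF1, U2AF2, SF1, EFTUD2 and SNRNP200. The rule used no measured value and found 38 of 20037 protein-coding genes. The data are peaks of RNA crosslinked to a tagged ribosomal protein in HCT116, a long-established line of human colorectal carcinoma cells, and were obtained by GoldCLIP-seq. In GoldCLIP the HaloTag ties its fusion protein covalently to beads, so that bound RNA can be washed under denaturing conditions without a gel. The series held 3 samples, 1 library each, of cells with HaloTag alone, RPL22-HaloTag or RPL22L1-HaloTag. RPL22 belongs to the large subunit of the ribosome and also binds RNA outside it, and RPL22L1 is its paralog.

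The RPL22-HaloTag library gave 154000 peaks and the RPL22L1-HaloTag library 254413, and the lists are called RPL22 and RPL22L1 after them. The promoter that drives each fusion, its level beside the cells' own RPL22 and RPL22L1, and whether each line is 1 clone are not given in the sources used here. The library of HaloTag alone was not analysed here, and RNA abundance was not measured. Binding, RNA level and capture without binding therefore cannot be told apart, and every comparison is between 2 libraries with no replicate check and no test. Shares are followed by their exact 95% Clopper-Pearson interval, which reflects counting error alone. The number of reads behind each list is unknown.

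The spliceosome removes introns and is built from small nuclear ribonucleoproteins, each a small nuclear RNA with a ring of Sm proteins and with proteins of its own. The U1 particle marks the 5′ splice site, SF1 and the U2AF proteins mark the branch point and the 3′ splice site, and the U2 particle with its SF3A and SF3B complexes then takes the branch point. The U4/U6.U5 tri-snRNP joins next, and helicases and the Prp19 complex help to form the active site. Most of these genes are transcribed in nearly all tissues and are not markers of colon.

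A peak was given to a gene when its summit, the base the peak file marks as its highest point, lay within the bounds of the gene, introns included. These genes held 274 RPL22 summits and 567 RPL22L1 summits. At least 1 summit was found in 35 of 38 genes in the RPL22 list, or 92.1% (78.6 to 98.3), where 68.3% of all protein-coding genes had one. The RPL22L1 list gave the same count, 35 of 38, where 69.8% of all protein-coding genes had one. In the RPL22 list 29 genes had at least 3 summits, where 51.7% of all protein-coding genes did, and in the RPL22L1 list 33, where 54.9% did. Spliceosome protein genes were thus more often marked than protein-coding genes at large in both libraries, the counting interval lying above the background in each.

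Per length the difference was larger. The median was 0.304 summits per kb (quartiles 0.213 and 0.457) in the RPL22 list, against 0.0992 over all protein-coding genes. In the RPL22L1 list it was 0.696 (quartiles 0.427 and 0.888), against 0.128. Of the 38 genes, 32 (RPL22 list) and 33 (RPL22L1 list) lay above the median of all protein-coding genes. The difference held within gene length classes up to 100 kb. For the 19 members of 10 to 30 kb the medians were 0.321 and 0.659 summits per kb in the RPL22 and RPL22L1 lists, against 0.158 and 0.203 for protein-coding genes of that length. For the 11 members of 30 to 100 kb they were 0.269 and 0.706, against 0.149 and 0.203. Of the 7 members under 10 kb the RPL22 list marked all and the RPL22L1 list 6, where 39.6% and 42.0% of protein-coding genes of that length did. From 10 to 30 kb the RPL22 list marked 89.5% (66.9 to 98.7) against 70.4%, and the RPL22L1 list 94.7% (74.0 to 99.9) against 71.0%. From 30 to 100 kb each list marked 90.9% (58.7 to 99.8), against 82.7% and 83.9%. The interval included the protein-coding share from 30 to 100 kb in both lists, and from 10 to 30 kb in the RPL22 list. The part of RNA level in these differences was not tested.

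**Figure D1:**
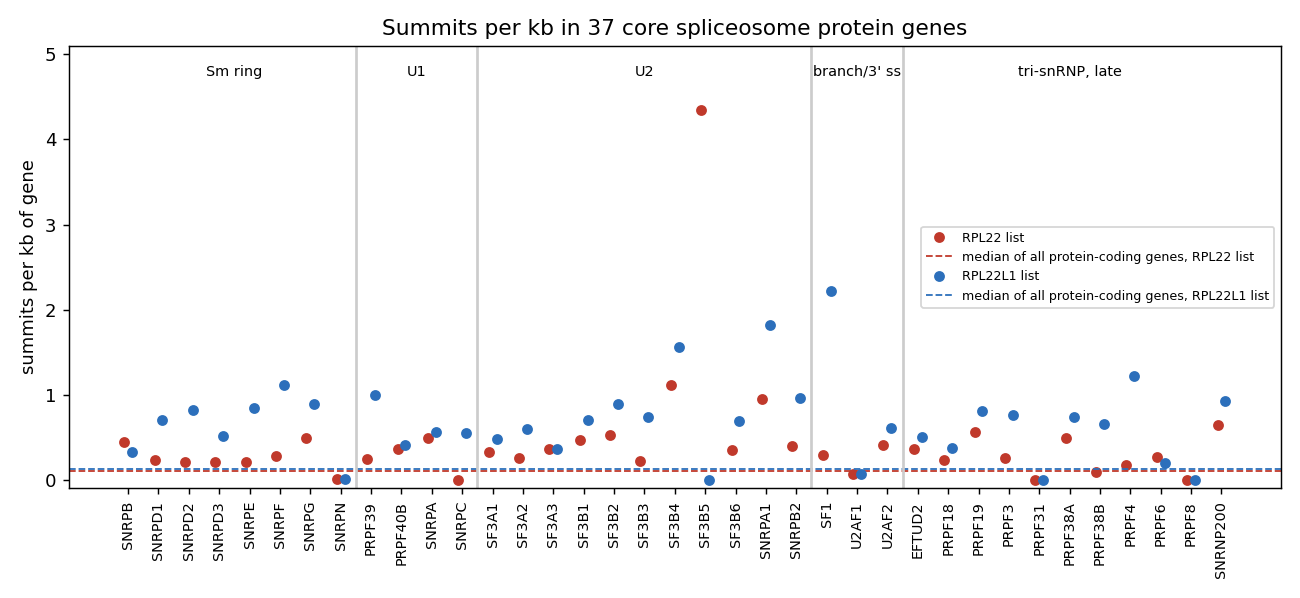
Summits per kb of gene (linear axis) for 37 of the genes, ordered by role, in the RPL22 list (red) and the RPL22L1 list (blue), 1 library each. Dashed lines are the medians of all protein-coding genes, 0.0992 and 0.128. Most genes lie above both lines, SF3B5 stands highest in the RPL22 list and SF1 in the RPL22L1 list, and PRPF8 and PRPF31 lie at 0.

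Peaks that reach the first transcribed bases can be shown with their sequence, because the RefSeq promoter table of GRCh38.p14 holds those bases for 33 of the 38 genes. A run is the stretch of a peak that falls in the first 50 transcribed bases of a gene, shown where it spans at least 20 bases and trimmed to 30. It was found for 6 genes in the RPL22 list against 5 in the RPL22L1 list. The share of all protein-coding genes with such a run was not computed, so these counts are not read as high or low. The 7 runs below are examples from genes of the Sm ring, the U1 particle and the U2 particle, written 5′ to 3′ on the strand of the gene. Runs of SNRPA, SF3A3, EFTUD2 and PRPF19 are not printed. Capitals mark the peak summit with 2 bases on each side, and a run without capitals ends before its summit.

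SNRPB, RPL22 list, chr20:2470758-2470787, minus strand: atttccggtagcgGCGGCgggaaatcggct
SNRPF, RPL22 list, chr12:95858977-95859001, plus strand: actgcggctcgggacctgcggtacc
SNRPF, RPL22L1 list, chr12:95858952-95858981, plus strand: ctgtttggcggccATTTCtcttgaaactgc
SNRPD2, RPL22L1 list, chr19:45691931-45691953, minus strand: ctctcTCTCCtcaggcagcagca
SNRPC, RPL22L1 list, chr6:34757533-34757554, plus strand: tgcagagcaacatGCCCAagtg
SF3A1, RPL22 list, chr22:30356848-30356877, minus strand: tcgtactgaccgaGCGGGgaggctgtcttg
SF3B1, RPL22L1 list, chr2:197434979-197435008, minus strand: gtggacaaaatggcgaagatcgccaagact

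These runs lie at the annotated start of each transcript. The SNRPC and SF3B1 runs contain the ATG at which translation starts. SNRPD2 begins with an unbroken stretch of C and T. SNRPB and SF3A1 have their summit in GC-rich sequence, but the first 50 transcribed bases had the same median GC content, 64.0%, in these genes and in all protein-coding genes.

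In a window from 250 bases before to 500 bases after a start, a window chosen after the data were seen, lay 22 of 219 RPL22 summits, or 10.0% (6.40 to 14.8). Over all protein-coding genes of the promoter table the share was 3.71%. For the RPL22L1 list 17 of 386 summits lay there, 4.40% (2.59 to 6.96), against 1.84%. Shares of both lists were above those of protein-coding genes, and the difference in gene length between the sets was not adjusted for.

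The Sm proteins form the ring on U1, U2, U4 and U5 RNA. All 8 of their genes had summits in both lists, 25 in the RPL22 list against 60 in the RPL22L1 list. Their median was 0.223 summits per kb in the RPL22 list against 0.765 in the RPL22L1 list.

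SNRPB, which encodes SmB and SmB′, carried one of the strongest peaks in the group. At chr20:2462963-2462997 the RPL22 list had a peak with score 2843, rank 344 of 154000. Scores are the authors' own values, on a scale they do not state, and are compared only by rank within a list. The RPL22L1 list had a peak over the same bases, chr20:2462960-2463035, with score 13307 and rank 205 of 254413. Both summits lie in SNORD119, a C/D box small nucleolar RNA encoded inside SNRPB. Such RNAs are processed from introns of their host, and RNA of SNORD119 and of the SNRPB intron cannot be told apart in these peaks. The remaining SNRPB peaks were few: 3 in the RPL22 list with scores 52, 120 and 157, and 2 in the RPL22L1 list with scores 108 and 122. SNRPB was thus 1 of 3 genes with fewer summits in the RPL22L1 list (3) than in the RPL22 list (4).

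SNRPF had 2 summits in the RPL22 list against 8 in the RPL22L1 list, or 0.278 and 1.11 per kb. Its strongest peaks shared a summit position 119 bases after the start, with score 258 in the RPL22 list against 530 in the RPL22L1 list. A further RPL22L1 peak with score 13, the lowest score of either list, covers the first 30 transcribed bases printed above. SNRPE had 2 and 8 summits, and its best peaks overlapped near the distal end of the gene, chr1:203869974-203870023 with score 238 and chr1:203869967-203870050 with score 986. SNRPD1 had 5 and 15 summits, SNRPD2 1 and 4, SNRPD3 4 and 10, and SNRPG 6 and 11. No SNRPD3 peak overlapped between the lists.

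SNRPN encodes a close relative of SmB that is made mainly in brain and heart from an imprinted locus. It is the one member over 100 kb, at 155 kb, and had 1 summit in each list, 0.00645 per kb, below the 0.0629 and 0.0824 of protein-coding genes of that length class. The summits flanking the gene were 303 kb apart in the RPL22 list, with 1 other protein-coding gene between. In the RPL22L1 list they were 786 kb apart, with 2 others between. Its surroundings thus shared the lack of peaks, and the low density is not read as a value of SNRPN itself. The RPL22 summit was at chr15:24913456-24913485 with score 58 and the RPL22L1 summit at chr15:24977853-24977886 with score 406. They lay far apart and both fell in another annotated gene as well. The peak lists give no strand, so overlapping genes cannot be told apart.

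The U1 group includes SNRPA and SNRPC, proteins of the U1 particle, and PRPF39 and PRPF40B, relatives of yeast U1 factors.

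PRPF39 had 8 summits in the RPL22 list against 32 in the RPL22L1 list, and 4 peaks of each list overlapped. Its best RPL22 peak, chr14:45096918-45096984 with score 752 and rank 923, overlapped an RPL22L1 peak with score 1062. Its best RPL22L1 peak, chr14:45110901-45110958 with score 1453 and rank 1070, lies in the small nucleolar RNA gene SNORD127, 1154 bases from the nearest RPL22 peak. PRPF39 thus had both a site present in both lists and a snoRNA site listed for RPL22L1 alone.

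SNRPC, whose protein steadies the pairing of U1 RNA with the 5′ splice site, had no summit in the RPL22 list against 9 in the RPL22L1 list. Those 9 peaks had scores of 16 to 208 and the strongest ranked 58851 of 254413, so none was among the top 10%. Among the 154000 highest-scoring RPL22L1 peaks, 3 of the 9 were left. The SNRPC difference therefore rests on peaks of middle and low rank. SNRPA, which binds a stem-loop of U1 RNA, had 7 and 8 summits. Its best RPL22 peaks, with scores 425 and 371, overlapped no RPL22L1 peak, although the gap to the nearest was 609 bases for the first and 0 for the other. PRPF40B had 8 and 9 summits, of which 2 and 5 lay in another annotated gene too. A single pair of its peaks overlapped between the lists.

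The U2 group was the most densely marked in the RPL22 list, with 94 summits at 0.416 per kb over its 11 genes. The RPL22L1 list had 168, or 0.743 per kb. The RPL22 list marked all 11 genes and the RPL22L1 list 10 of them.

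SF3B3, a large scaffold of the SF3B complex, held the strongest peak of the group in both lists. Score 52895 at chr16:70529554-70529584 ranked 55 in the RPL22 list, and score 185385 at chr16:70529541-70529585 ranked 41 in the RPL22L1 list. The summits lie in SNORD111B, a small nucleolar RNA gene inside SF3B3. A second RPL22L1 peak, chr16:70538060-70538102 with score 6063 and rank 327, lies in SNORD111, and the nearest RPL22 peak is 8475 bases away. SF3B3 had 12 summits in the RPL22 list against 40 in the RPL22L1 list, and 5 peaks of each overlapped. The next RPL22 peak of the gene by score stood at 244, so its place at the head of the group rests on the peak within SNORD111B. RNA of the snoRNA and of the SF3B3 intron cannot be told apart there.

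SF3B1 binds the helix of U2 RNA with the branch point and is often mutated in myeloid cancers. It had 21 summits in the RPL22 list against 32 in the RPL22L1 list, and 6 peaks of each overlapped. The best RPL22 peak, chr2:197418512-197418547 with score 614 and rank 1189, overlapped an RPL22L1 peak with score 1781. The best RPL22L1 peak, chr2:197420408-197420476 with score 7131 and rank 295, overlapped none, but an RPL22 peak with score 62 lay 5 bases away. At the start of the gene the same pattern was seen: the RPL22L1 peak with score 954, part of which is printed above, lay 28 bases from an RPL22 peak with score 121. At both of these sites, counting overlap by shared bases thus understates how close the peaks of the lists lie.

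SF3B2, another subunit that lies on the branch region, had 9 and 15 summits and an RPL22 peak with score 787 and rank 877 at chr11:66060649-66060678. It overlapped an RPL22L1 peak with score 476. SF3B4, which contacts RNA just upstream of the branch point, is 4.49 kb long and had 5 and 7 summits, 1.11 and 1.56 per kb. Its strongest peaks in the RPL22 list had score 76 at chr1:149924040-149924086 and 56 at chr1:149923418-149923447. In the RPL22L1 list the strongest had score 341 at chr1:149926813-149926867. That peak ranked 20978 of 254413, so SF3B4 was dense in both libraries without a peak among the top 1% of scores.

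SF3B5, the small subunit encoded by the shortest member (0.690 kb), had the highest density in the RPL22 list, 4.35 per kb, from only 3 peaks. They had scores of 139, 76 and 76 and lay between chr6:144095172 and chr6:144095474. The RPL22L1 list had no summit in the gene. A density built on 3 peaks in so short a gene is imprecise. SF3B6, the subunit that touches the branch adenosine, had 3 and 6 summits. All 3 of its RPL22 peaks overlapped RPL22L1 peaks.

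SNRPA1 encodes a protein of the U2 particle, and was dense in both lists: 13 summits (0.946 per kb) in the RPL22 list and 25 (1.82 per kb) in the RPL22L1 list. Of its 13 RPL22 peaks 10 overlapped an RPL22L1 peak. Its partner protein is encoded by SNRPB2, which had 5 and 12 summits. The SF3A genes, whose products join SF3B to the U2 core, had 8 and 12 summits (SF3A1), 3 and 7 (SF3A2) and 12 in each list (SF3A3). SF3A1 had no peak that overlapped between the lists although it had 8 in the RPL22 list, and SF3A2 had none either.

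**Figure D2:**
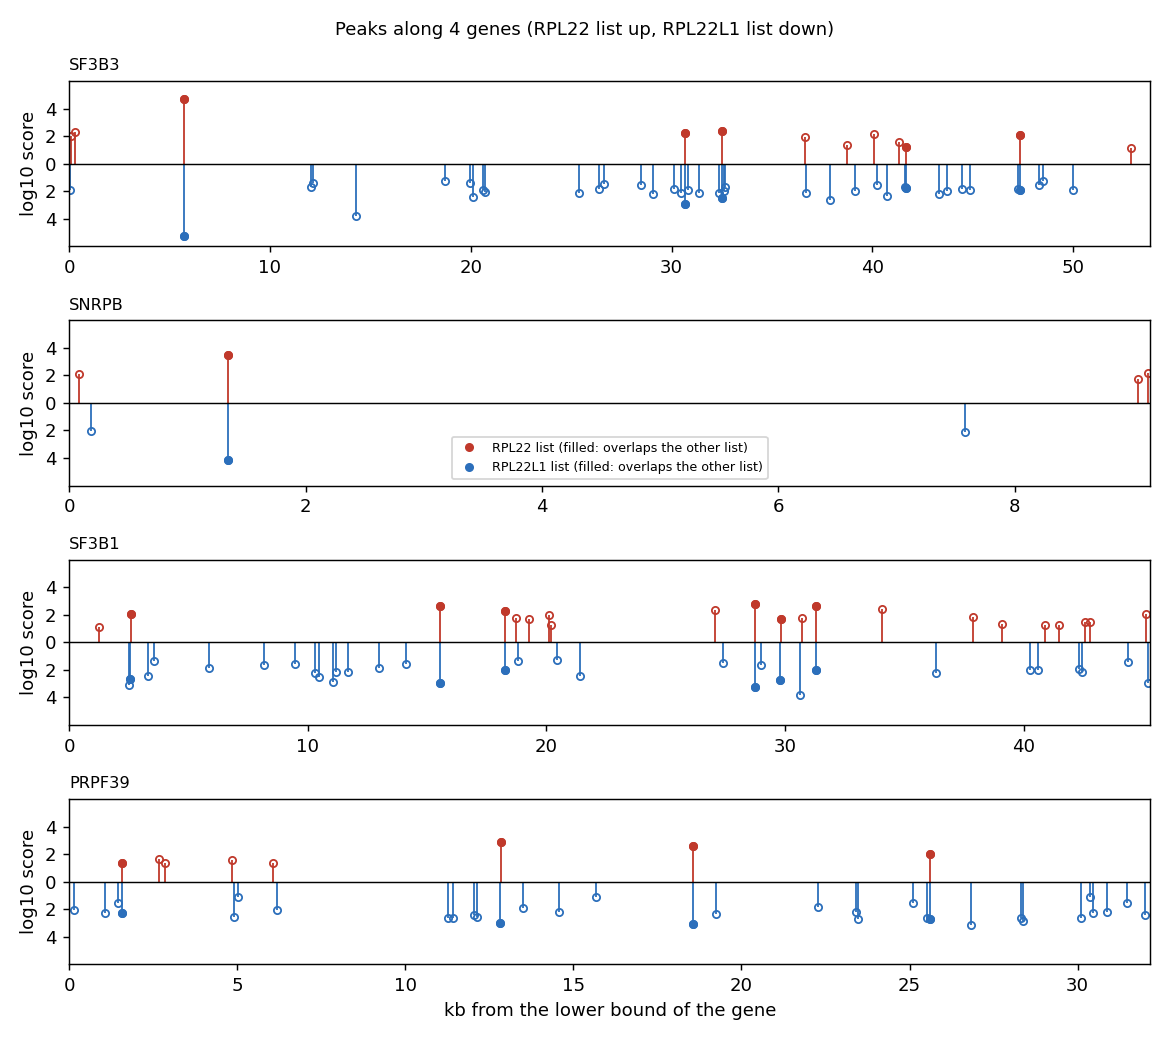
Peaks along SF3B3, SNRPB, SF3B1 and PRPF39, with the distance from the lower bound of each gene in kb on the x axis and the log10 of the authors' score on the y axis, RPL22 list upwards and RPL22L1 list downwards. Filled points overlap a peak of the other list. The tallest lines of SF3B3 and SNRPB stand at the same place in both lists, within SNORD111B and SNORD119, while most lower peaks of SF3B1 and PRPF39 have no partner.

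SF1 and the U2AF proteins recognise the branch point and the 3′ splice site. SF1, the branch point binding protein, had 4 summits in the RPL22 list against 31 in the RPL22L1 list. Its 2.22 summits per kb in the RPL22L1 list were the most of any member, higher than in 99.4% of protein-coding genes, against 0.287 in the RPL22 list. All 4 RPL22 peaks overlapped an RPL22L1 peak. The strongest of them was chr11:64765540-64765589 with score 425. The 31 RPL22L1 peaks had a best score of 640 and 14 of them were flat, that is 30 bases wide with the summit at offset 15. Of the 31, 12 were among the 154000 highest-scoring RPL22L1 peaks. The SF1 sites of the RPL22 list thus recurred in the RPL22L1 list beside many further ones, most of lower rank.

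U2AF2, the large subunit that binds the polypyrimidine tract, had 8 and 12 summits with 1 overlapping pair. U2AF1, which reads the AG of the 3′ splice site, had 1 summit in each list at nearly the same bases. The RPL22 peak chr21:43104304-43104333 had score 45 and the RPL22L1 peak chr21:43104303-43104341 score 1313, rank 1256. The summits flanking the gene were 255 kb apart in the RPL22 list, with 2 other protein-coding genes between. In the RPL22L1 list they were 231 kb apart, with 1 other between. Most of each stretch, 236 and 212 kb, lay beyond the upper bound of the gene. U2AF1 has a near-identical copy in GRCh38, and how reads with several matches were treated is not given in the sources used here, so its low count is uncertain.

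The last group holds the proteins of the tri-snRNP, of the B complex and of later steps. In 9 of its 11 genes it had 97 summits in the RPL22 list against 167 in the RPL22L1 list, 0.282 and 0.486 per kb over the group. Its RPL22L1 density was below the 0.743 of the U2 group and the 0.912 of the branch point group. It was above the 0.251 of the Sm ring, where SNRPN makes up 155 of 239 kb. In the branch point group SF1 alone held 31 of the 44 RPL22L1 summits. By the median over genes the order differed. The RPL22L1 median was 0.659 summits per kb for the tri-snRNP and later group and 0.610 for the branch point group. It was 0.706 for the U2 group and 0.765 for the Sm ring.

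SNRNP200, the helicase that unwinds U4 from U6 RNA, had 20 and 29 summits, 0.641 and 0.929 per kb, and 9 peaks of each list overlapped. Of its 20 RPL22 peaks 19 were not flat. EFTUD2, the GTPase of the U5 particle, had 18 and 25 summits, and PRPF18, a factor of the second catalytic step, 16 and 26, with 4 in each list inside another annotated gene. PRPF6, which bridges U5 and U4/U6, was 1 of 3 genes with fewer summits in the RPL22L1 list, 10 against 14. A single pair of its peaks overlapped, close to the start of the gene. PRPF19, the ubiquitin ligase of the Prp19 complex, had 9 and 13 summits, 0.561 and 0.811 per kb.

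PRPF4, a U4/U6 protein, had 3 summits in the RPL22 list against 21 in the RPL22L1 list, 0.174 and 1.22 per kb. Of the 21 peaks 18 were flat and the best score was 259, and 5 were among the 154000 highest-scoring peaks, so the high RPL22L1 density of PRPF4 came mostly from flat peaks of low rank. PRPF3, its partner in the particle, had 8 and 24 summits. PRPF38A, a B complex protein, had 8 and 12, of which 6 and 7 lay in another annotated gene too. PRPF38B had 1 and 7 summits. Its best RPL22L1 peak, chr1:108698636-108698760 with score 1876 and rank 757, lay 1880 bases from the nearest RPL22 peak.

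PRPF8, the scaffold of the catalytic centre, and PRPF31, a U4/U6 protein, had no summit in either list as used here. PRPF8 lies in a stretch of 209 kb without a summit in the RPL22 list and of 216 kb in the RPL22L1 list, each with 6 other protein-coding genes. PRPF31 lies in one of 986 kb with 39 other protein-coding genes and one of 168 kb with 6. Neighbouring genes shared the lack of peaks, so the zeros are not read as values of these genes. Without both, 35 of 36 members (97.2%) had a summit in each list, and the medians were 0.327 and 0.707 summits per kb.

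How strongly the genes were marked in one list said little about the other. Spearman's rho of summits per kb between the lists was 0.31 over the 38 genes and 0.28 over the 34 with a summit in both, against 0.79 and 0.74 over protein-coding genes. These rho values describe genes that share their libraries and are not replicates. Of the 38 members, 32 (RPL22 list) and 33 (RPL22L1 list) lay above the median density of all protein-coding genes. The members thus span only part of the range of protein-coding genes. The effect of this on rho was not tested, and no discordance particular to these genes is read from it. Longer members had more summits, with rho 0.54 and 0.53 between length and summits in the RPL22 and RPL22L1 lists, close to the 0.57 and 0.55 of protein-coding genes. More summits in the RPL22L1 list than in the RPL22 list were found for 30 genes, as many for 5 and fewer for 3. The RPL22L1 list is the longer one, so the 154000 highest-scoring RPL22L1 peaks were set against the RPL22 list next, as lists of equal size.

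In lists of equal size 274 RPL22 and 303 RPL22L1 summits lay in these genes. The ratio was taken as the log2 of RPL22L1 summits plus 1 over RPL22 summits plus 1, where a gene reached a total of 10 summits over both lists. It could be formed for 24 members, and 14 were under that minimum. The median was -0.19, where that of the 7836 protein-coding genes was 0.00. Above 1 lay 2 members, 8.33%, where 6.19% of protein-coding genes did, and below -1 lay 2, 8.33%, where 8.89% did. Both shares are near the background, and no lean of the group to either list is read from them.

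PRPF39 and SF1 were the members above 1. PRPF39 had 8 summits in the RPL22 list against 24 in the RPL22L1 list of equal size, a log2 ratio of 1.47. Its counting interval, formed without the added 1, was 0.38 to 2.95. PRPF39 had the highest ratio of the 24 members tested, and the interval is not adjusted for that choice. That it lies above 0 is therefore not read as support for a difference. SF1 had 4 and 12, a log2 ratio of 1.38, with a counting interval of -0.14 to 3.67 that included 0. SNRPD1 had 5 and 9, a ratio of 0.74, and PRPF3 8 and 13, a ratio of 0.64. The counting intervals of SNRPD1 and PRPF3 included 0 too. An interval over counts leaves out the spread between cultures and treats the peaks of a gene as independent.

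PRPF40B and PRPF6 were the members below -1. PRPF40B had 8 summits in the RPL22 list against 2 in the RPL22L1 list of equal size, a log2 ratio of -1.58, which became 0.15 in the whole lists with 8 and 9 summits. PRPF6 had 14 and 6, a ratio of -1.10, which was -0.45 in the whole lists with 14 and 10. SF3B2 stood at the limit with 9 and 4 summits and a ratio of -1, which became 0.68 in the whole lists. PRPF19 had 9 and 5, a ratio of -0.74, and U2AF2 8 and 5, a ratio of -0.58. In the whole lists both ratios turned positive, to 0.49 and 0.53. The counting intervals of all 5 genes included 0. In the whole lists 11 of 28 tested members lay above 1 and 0 below -1, where 30.6% and 2.50% of the protein-coding genes with enough summits did.

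**Figure D3:**
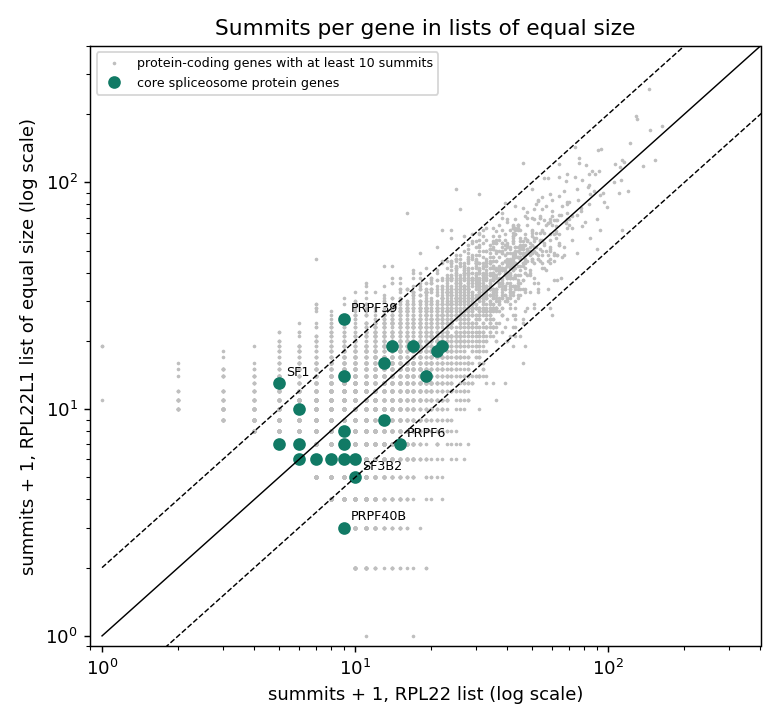
Summits plus 1 per gene in the RPL22 list (x axis) and in the RPL22L1 list of equal size (y axis), both on log scales, for protein-coding genes (grey) and 23 of the spliceosome genes with at least 10 summits (green). The solid line marks equal numbers and the dashed lines a log2 ratio of 1 and -1. PRPF39 and SF1 lie above the upper dashed line, PRPF40B and PRPF6 below the lower one and SF3B2 on it.

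The summits in lists of equal size, not given here for the U1 group, were 25 and 34 for the Sm ring and 13 and 18 for the branch point group, in the RPL22 and RPL22L1 lists. For the U2 group they were 94 and 87, and for the tri-snRNP and later group 97 and 89.

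Peaks in spliceosome genes were shared between the lists more often than peaks in protein-coding genes at large. An overlap of at least 1 base was found for 99 of 274 RPL22 peaks, 36.1% (30.4 to 42.1), against 19.1%. For the RPL22L1 list it was 99 of 567, 17.5% (14.4 to 20.8), against 11.4%. Overlapping peaks occurred in 30 of the 38 genes, where 39.9% of all protein-coding genes had one. These genes also held more summits per kb in both lists, pooled 0.272 against 0.103 (RPL22) and 0.563 against 0.174 (RPL22L1). The shares were not adjusted for this density or for gene length, and its part in the sharing was not tested. In the roles other than the U1 group, which is not given here, the share of RPL22 peaks that overlapped ran from 28.0% (7 of 25) in the Sm ring and 28.9% (28 of 97) in the tri-snRNP and later group to 39.4% (37 of 94) in the U2 group and 46.2% (6 of 13) in the branch point group.

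Sharing went with score rank. Of RPL22 peaks in the top 10% of scores, 40 of 56 (71.4%) overlapped, where 57.9% of those in protein-coding genes did. Between 10% and 50% the share was 36.0% (50 of 139) against 19.5%, and in the lower ranks 11.4% (9 of 79) against 7.32%. For the RPL22L1 list these shares were 49.4% (44 of 89) against 34.3%, 12.96% (21 of 162) against 11.6% and 10.8% (34 of 316) against 6.70%. Spliceosome genes lay above protein-coding genes in all 6 classes. The counting interval cleared the protein-coding share in 3 of them: the middle class of the RPL22 list, and the top and lowest classes of the RPL22L1 list. Such an interval treats the peaks of a gene as independent and leaves out the spread between cultures. Its position is therefore not read as support for a difference.

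**Figure D4:**
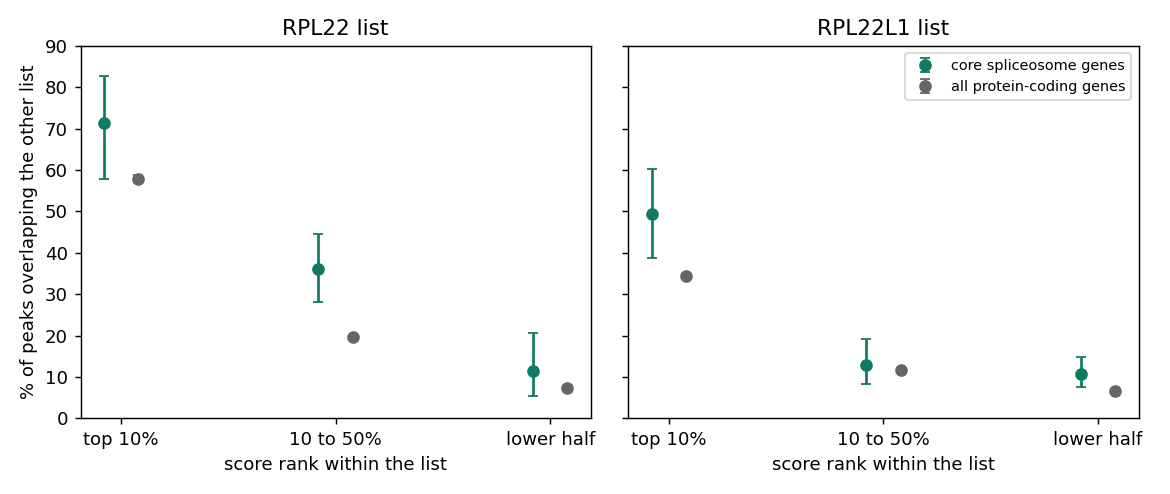
Share of peaks that overlap a peak of the other list, in percent, by score rank within the list, for spliceosome genes (green) and all protein-coding genes (grey), with exact 95% binomial intervals that cover counting error only. Strong peaks overlap most in both lists, from 71.4% to 11.4% in the RPL22 list and from 49.4% to 10.8% in the RPL22L1 list, and the green points lie above the grey ones in every class.

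The peaks also differed in shape and rank. Flat peaks made up 36.5% of RPL22 and 62.4% of RPL22L1 peaks in these genes, against 61.5% and 76.4% in protein-coding genes. In the RPL22 list 20.4% (56 of 274) were among the top 10% of scores, against 10.8%, and their median rank, counted from the top, stood at 24.8% of the list, against 44.6%. In the RPL22L1 list 15.7% (89 of 567) were among the top 10%, against 10.2%, but the median rank stood at 56.6%, against 50.1%. RPL22 peaks in these genes were thus less often flat and of higher rank than usual, while the RPL22L1 peaks combined more strong peaks with many weak ones.

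A further set of 44 genes, called the other spliceosome genes, gave a like picture. It includes the LSM proteins of the U6 ring, proteins of the U11/U12 minor particle and Prp19 complex subunits. It also holds LSM1, which is not part of the U6 ring. In each list 42 of 44 had a summit, and the medians were 0.285 and 0.561 summits per kb. ZMAT2, a B complex protein, was densest in both lists, with 9 summits (1.44 per kb) and 10 (1.60 per kb). In the RPL22 list LSM7 (9 summits, 1.27 per kb) and LSM5 (8 summits, 0.804 per kb) followed, both parts of the U6 ring. In the RPL22L1 list SNRNP48, a protein of the minor particle, had 32 summits (1.47 per kb) and PLRG1, of the Prp19 complex, 21 (1.36 per kb). Of the 30 with enough summits in lists of equal size 0 had a log2 ratio above 1 or below -1, and the median was 0.076. The ratios of the 24 core members ran from -1.58 to 1.47.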

How the data were processed

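GoldCLIP-seq peak lists of 2 libraries were used, 1 per group. Groups came from the genotype label. Per the submitters' processing notes, cutadapt 4.8, STAR 2.7.10a, UMI-tools 1.1.5, MACS3 3.0.0a6 and hg38 were used. Their roles, the peak control, thresholds and the treatment of reads with several matches are not given in the sources used here. Each deposited list has 10 columns and no strand. The score was deposited by the authors as a whole number for every peak, with no scale stated. Peaks were listed per library and depth is unknown.

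From these, summits were placed in RefSeq GRCh38.p14 gene bounds (no exons), in coordinates counted from 1. Overlap meant at least 1 shared base. Lists of equal size broke ties at score 98 by position. Alternatives changed 1 choice at a time: scores at or above the list median, without flat peaks, without summits in a shorter gene inside a member, other limits and a pseudocount of 0.5. Tie handling and the window near starts were chosen after the data were seen.

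The members, roles and lists were chosen with earlier results of these data known. Genes were named by rule: members without a summit, the 5 per list with the highest-scoring peak, the 5 per list with most summits per kb, the 5 with the largest log2 ratio each way and, of the other spliceosome genes, the 3 with most summits per kb per list. Members named beyond these were added to account for all. PRPF4B, listed under another symbol in the gene table, was not matched. Among the members with no entry in the promoter table were SNRPD1, PRPF39, SF3B3 and PRPF3. The values of 1 member are not reported here; it is counted in totals. Python 3.11.15, matplotlib 3.10.9, scipy 1.17.1, pandas 2.3.3 and numpy 2.4.6 were used, and the counting code was tested on simulated data.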

Additional observations from a re-analysis of the deposited data

How the results depend on the processing

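Numbers and shares moved where peaks were left out or overlap was tightened, and 28 of 42 answers stayed within 1.5 times or within their counting interval. Without flat peaks the summits fell to 174 and 213 in the RPL22 and RPL22L1 lists, and the RPL22L1 overlap was 31.0%. Kept to scores no lower than its median, the RPL22L1 list had 251 summits and an overlap of 24.3%. With lists of equal size it had 303 summits, and the overlaps were 28.1% (RPL22) and 25.1% (RPL22L1). With at least 50% of both peaks shared they were 19.0% and 9.17%. The overlap share over peaks in all protein-coding genes is not given for any of these settings. No excess or lack of sharing is therefore read from these overlaps. Members with a log2 ratio past 1 towards RPL22L1 numbered 11 of 28 tested in the whole lists, where 30.6% of protein-coding genes did. With at least 5 summits they numbered 4 of 30 tested, instead of 2 of 24. The share of protein-coding genes in that setting was not computed, so no excess is read from the 4. Towards RPL22 there were 0 in the whole lists and, without flat peaks, 1 of 10 tested, instead of 2. That 1 was EFTUD2, and 11.9% of protein-coding genes lay below -1 in that setting. In the whole lists PRPF40B turned to 0.15, SF3B2 to 0.68, PRPF19 to 0.49 and U2AF2 to 0.53, and PRPF6 stood at -0.45, no longer below -1. The RPL22L1 list is the longer one, with 254413 peaks against 154000. How far this length gave the higher RPL22L1 counts in the whole lists was not tested. No paired analysis was possible because each group has 1 library. Depth is unknown, so a gene without a peak is not shown to be unbound.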

Other observations

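Of the 70 pseudogenes that share the name stems of the members, each list had a summit in 5, or 7.14% (2.36 to 15.9), where 9.71% (RPL22) and 11.2% (RPL22L1) of all pseudogenes did, both within that counting interval. Reads that match a gene and its processed copy cannot be told apart without the treatment of reads with several matches, which is not given in the sources used here.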
